A study of Mus musculus with 6 samples.

Results

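The Igkv segments are the variable gene segments of the immunoglobulin kappa light chain. They were taken as every row whose symbol begins with Igkv, which gave 118 of the 30803 rows in each library, and they were grouped into 20 families by the number before the hyphen. The annotation (GENCODE M21) lists 99 of the 118 as V genes and 19 as V pseudogenes. Bone marrow cells that the labels call hematopoietic stem cells came from WT mice of 5 months and had been sorted by surface MHC class II into an MHCII-hi and an MHCII-lo fraction, and each fraction was sequenced in triplicate (n = 3). The titles mark all 6 libraries as Ctrl, and no treatment or further allele is given. The labels give no gate, and whether the replicates are different mice is not stated; p-values therefore refer to the spread among these libraries, which may be technical.

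In a developing B cell the RAG recombinase joins 1 V segment to 1 J segment of the kappa locus, and splicing then adds the constant region Igkc. V segments lie in both orientations along the locus, so that joining either deletes or inverts the DNA in between. The V segment codes for most of the part of the light chain that touches antigen, and a family is a set of V segments with similar sequence. A mature B cell or plasma cell normally makes 1 kappa or lambda chain, so V segment RNA in a bulk sample sums over many cells with different joins.

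Defining markers of stem cells were weak in both groups, so the cells are called by their sort and not by the labelled cell type. Hoxb5 was listed at 0 in 5 of 6 libraries and Mecom and Fgd5 averaged 0.190 and 0.127 FPKM in MHCII-hi against 0.05 and 0.0567 FPKM in MHCII-lo. Slamf1 averaged 0.387 FPKM in MHCII-hi and 0.210 FPKM in MHCII-lo. Kit, the receptor for stem cell factor, averaged 10.8 ± 0.208 FPKM in MHCII-hi and 10.9 ± 0.0306 FPKM in MHCII-lo. Neutrophil markers summed to 20386 to 20655 FPKM in MHCII-hi and 15576 to 15641 FPKM in MHCII-lo, and markers of several mature lineages were thus present in both fractions. Of 8 neutrophil genes 4 rose and 3 fell. Of 7 T cell genes 6 rose and 1 fell, of 7 erythroid genes 6 fell and 0 rose, and of 8 dendritic cell and macrophage genes 7 rose and 1 fell. Among all 12295 tested genes, 27.2% were called higher and 40.5% lower in MHCII-hi.

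Similarity between segments matters for every level given here, because reads that fit several segments can be assigned to any of them. Between members of the same family the V exons had a median identity of 87.7%, and between members of different families 63.0%. At least 95% identity was reached by 34 pairs, all within families, and these pairs involved 53 segments. Of the 87 segments that were tested, 65 shared at least 1 stretch of 50 bases with another annotated Igkv transcript, and in 14 of them more than 50% of such stretches were shared. The sequences below are the coding part of the V exon from the GENCODE M21 transcripts (GRCm38), 5′ to 3′ in the sense of the transcript.

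Family 10 is shown because its 3 members are alike and yet had very different levels. Igkv10-96 lies at chr6:68631963-68632260 on the minus strand, Igkv10-94 at chr6:68704508-68704805 on the minus strand and Igkv10-95 at chr6:68680551-68680848 on the plus strand. Capitals mark the 22 positions at which the 3 differ. Igkv10-94 differs from Igkv10-96 at 16 positions and Igkv10-95 differs from it at 19.
Igkv10-96: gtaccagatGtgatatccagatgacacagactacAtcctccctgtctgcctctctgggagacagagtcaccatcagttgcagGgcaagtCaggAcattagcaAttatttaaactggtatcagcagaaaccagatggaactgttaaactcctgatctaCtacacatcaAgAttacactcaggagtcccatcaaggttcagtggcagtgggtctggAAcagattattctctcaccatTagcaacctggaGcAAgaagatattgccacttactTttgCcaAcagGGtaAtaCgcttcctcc
Igkv10-94: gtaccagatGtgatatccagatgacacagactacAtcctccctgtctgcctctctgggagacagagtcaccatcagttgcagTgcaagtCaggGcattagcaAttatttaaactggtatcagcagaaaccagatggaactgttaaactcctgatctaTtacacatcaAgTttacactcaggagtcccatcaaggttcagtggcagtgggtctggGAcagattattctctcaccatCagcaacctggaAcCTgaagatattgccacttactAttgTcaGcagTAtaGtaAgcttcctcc
Igkv10-95: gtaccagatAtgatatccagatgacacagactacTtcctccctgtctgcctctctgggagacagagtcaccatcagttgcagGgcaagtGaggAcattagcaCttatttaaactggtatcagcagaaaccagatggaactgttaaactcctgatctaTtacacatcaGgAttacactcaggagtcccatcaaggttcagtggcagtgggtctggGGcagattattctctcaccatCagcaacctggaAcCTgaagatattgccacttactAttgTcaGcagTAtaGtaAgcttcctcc

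Igkv3-2 (chr6:70698768-70699067, plus strand) and Igkv3-5 (chr6:70663596-70663895, plus strand) are shown as the segments with the highest level and the largest change in family 3. Capitals mark the 29 positions at which they differ, and the first 10 bases of the exon's coding part are left out.
Igkv3-2: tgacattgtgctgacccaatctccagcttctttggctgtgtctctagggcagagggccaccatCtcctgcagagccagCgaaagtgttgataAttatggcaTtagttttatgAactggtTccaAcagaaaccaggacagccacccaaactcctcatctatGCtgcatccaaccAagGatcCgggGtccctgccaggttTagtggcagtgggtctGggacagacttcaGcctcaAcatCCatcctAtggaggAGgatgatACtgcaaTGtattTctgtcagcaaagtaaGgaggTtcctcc
Igkv3-5: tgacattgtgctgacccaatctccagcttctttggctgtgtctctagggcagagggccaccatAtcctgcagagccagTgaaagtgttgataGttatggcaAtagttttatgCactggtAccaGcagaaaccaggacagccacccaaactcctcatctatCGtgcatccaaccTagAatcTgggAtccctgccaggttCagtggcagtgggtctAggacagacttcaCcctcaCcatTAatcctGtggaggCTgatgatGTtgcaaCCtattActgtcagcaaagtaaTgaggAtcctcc

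Igkv6-20 (chr6:70335841-70336138, minus strand) and Igkv6-29 (chr6:70138462-70138759, minus strand) are shown as a pair of near copies of which only Igkv6-20 passed the test. Capitals mark the 5 positions at which they differ, and 64.1% of the stretches of 50 bases in each occur in another Igkv transcript.
Igkv6-20: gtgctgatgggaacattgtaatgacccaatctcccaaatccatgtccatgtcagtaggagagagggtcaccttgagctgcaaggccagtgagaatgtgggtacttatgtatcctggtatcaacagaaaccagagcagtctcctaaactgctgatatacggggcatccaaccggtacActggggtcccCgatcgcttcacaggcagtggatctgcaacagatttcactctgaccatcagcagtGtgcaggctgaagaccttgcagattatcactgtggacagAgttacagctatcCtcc
Igkv6-29: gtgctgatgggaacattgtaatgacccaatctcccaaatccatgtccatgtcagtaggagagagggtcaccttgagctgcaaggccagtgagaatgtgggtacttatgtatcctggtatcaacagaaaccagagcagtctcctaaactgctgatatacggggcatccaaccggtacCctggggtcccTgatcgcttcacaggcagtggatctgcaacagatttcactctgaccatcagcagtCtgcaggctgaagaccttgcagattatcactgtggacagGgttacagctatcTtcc

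Igkv15-103 (chr6:68437628-68437925, plus strand) was the most abundant segment in MHCII-lo, and none of its stretches of 50 bases occurs in another Igkv transcript. Its closest relative in sequence, Igkv14-126, is 75.2% identical. Capitals mark a match to TANTANTG, the letters that a pair of tyrosine codons and the start of the conserved cysteine codon give near the 3′ end of many V exons. Searched on the sense strand only, these letters stand in the last 40 bases of the V exon in 78 of 99 annotated V genes (78.8%) and in 15 of 19 annotated V pseudogenes (78.9%).
Igkv15-103: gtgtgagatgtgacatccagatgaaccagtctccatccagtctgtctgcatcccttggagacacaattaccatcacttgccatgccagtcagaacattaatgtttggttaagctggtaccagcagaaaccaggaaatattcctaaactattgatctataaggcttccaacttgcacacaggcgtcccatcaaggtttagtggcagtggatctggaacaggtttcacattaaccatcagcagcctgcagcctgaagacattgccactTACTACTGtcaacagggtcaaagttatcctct

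Kappa V transcripts were about 20 times as abundant in MHCII-hi as in MHCII-lo. The summed Igkv level was 6333, 6342 and 6334 FPKM in the 3 MHCII-hi libraries, against 349, 289.9 and 292 FPKM in the 3 MHCII-lo libraries. The unit, inferred from the values, is FPKM, in which fragments are divided by transcript length and by library size. The means were 6336 ± 4.92 FPKM in MHCII-hi and 310.4 ± 33.8 FPKM in MHCII-lo (SD), a ratio of 20.4 and a log2 ratio of 4.35. The groups did not overlap, and the two-sided exact permutation p was 0.10, the smallest that 3 against 3 libraries can give. As a share of all FPKM, Igkv segments made up 1.90 ± 0.000992% in MHCII-hi and 0.101 ± 0.0110% in MHCII-lo. In bulk samples, more cells of a type and more RNA per cell cannot be told apart.

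Markers of B lineage cells moved with the V segments. On the B cell list 12 of 12 tested genes rose, with a summed level of 1060 to 1067 FPKM in MHCII-hi and 189 to 194 FPKM in MHCII-lo. Most of this sum was the heavy chain gene Ighm, which averaged 855 FPKM in MHCII-hi and 164 FPKM in MHCII-lo. On the plasma cell list 15 of 16 rose and Edem1 fell, with sums of 2571 to 2592 FPKM in MHCII-hi and 213 to 231 FPKM in MHCII-lo. That list holds secretory genes and heavy chain constant regions. On the pre-B cell list 8 of 9 tested genes rose and 1 fell, with sums of 112 to 120.0 FPKM in MHCII-hi and 61.8 to 64.6 FPKM in MHCII-lo. These counts stand beside 27.2% called higher and 40.5% called lower among all tested genes. No gene on these 3 lists was at 0 in all libraries, and whether the V segments follow these cells was not tested.

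More segments were measurable in MHCII-hi, at every level set. At a group mean of at least 1 FPKM there were 89 segments in MHCII-hi and 56 in MHCII-lo. At 10 FPKM the counts were 70 in MHCII-hi and 5 in MHCII-lo, and at 100 FPKM they were 22 in MHCII-hi and 0 in MHCII-lo. Segments above 0 numbered 103, 103 and 105 in the MHCII-hi libraries and 77, 81 and 79 in the MHCII-lo libraries. Read depth is unknown, so a value of 0 says only that a segment is listed at 0.

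Of the 118 segments, 87 averaged at least 1 FPKM across all 6 libraries and were tested together with all other genes (12295 in all). On log2(FPKM + 1) in limma, 85 of the 87 passed an adjusted p of 0.05 with the higher level in MHCII-hi, 0 were lower and 2 did not pass. Over all tested genes 27.2% were called higher and 40.5% lower. All 85 changed by at least 1 on the log2 scale, which 3.69% of all tested genes did in that direction. No segment was lower at an unadjusted p under 0.05 either, and 86 were higher at that level. With a minimum of 5 FPKM 70 of 70 segments were called higher, against 29.5% of all genes in that fit, and without a minimum 98 of 110 were, against 14.1% of all genes. The minimum of 5 FPKM, on the same mean over all 6 libraries, also admitted segments below 5 FPKM in MHCII-lo, which had to differ. For 31 of the 87 the minimum of 1 FPKM was reached only through MHCII-hi, so that these had to differ as well. The counts of 85 and 70 are thus no measure of how uniform the change was.

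The 56 segments with a mean of at least 1 FPKM in MHCII-lo as well are free of that selection. All 56 rose, with every MHCII-hi library above every MHCII-lo library. Among all genes with an MHCII-lo mean of at least 1 FPKM, 25.7% were called higher and 41.8% lower, and 29.6% of all tested genes had every MHCII-hi library on top. The ratio of mean FPKM lay between 4.25 and 87.1 over these 56 segments, with a median of 18.8. Their median log2 change on the log2(FPKM + 1) scale was 3.87, against -0.09 over all genes with the same MHCII-lo minimum. For the 13 of the 56 that share no stretch of 50 bases with another Igkv transcript, all 13 rose and the ratios ran from 4.25 to 34.7, with a median of 16.5.

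The 31 segments below the minimum comprised all 19 annotated V pseudogenes and 12 V genes, and no value among them exceeded 2.99 FPKM in any library. Of these 31, 8 were listed at 0 in all 6 libraries, 22 had the higher mean in MHCII-hi and 1 in MHCII-lo. That segment, Igkv1-132, had 0, 0 and 0.24 FPKM in MHCII-hi against 0.21, 0.09 and 0.27 FPKM in MHCII-lo and was not tested. The highest pseudogene mean in MHCII-hi was 0.943 FPKM (Igkv3-11), against a median of 27.7 FPKM over the 99 annotated V genes. The summed pseudogene level was 5.04 FPKM in MHCII-hi and 0.107 FPKM in MHCII-lo, so nearly all Igkv FPKM came from annotated V genes.

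**Figure D1:**
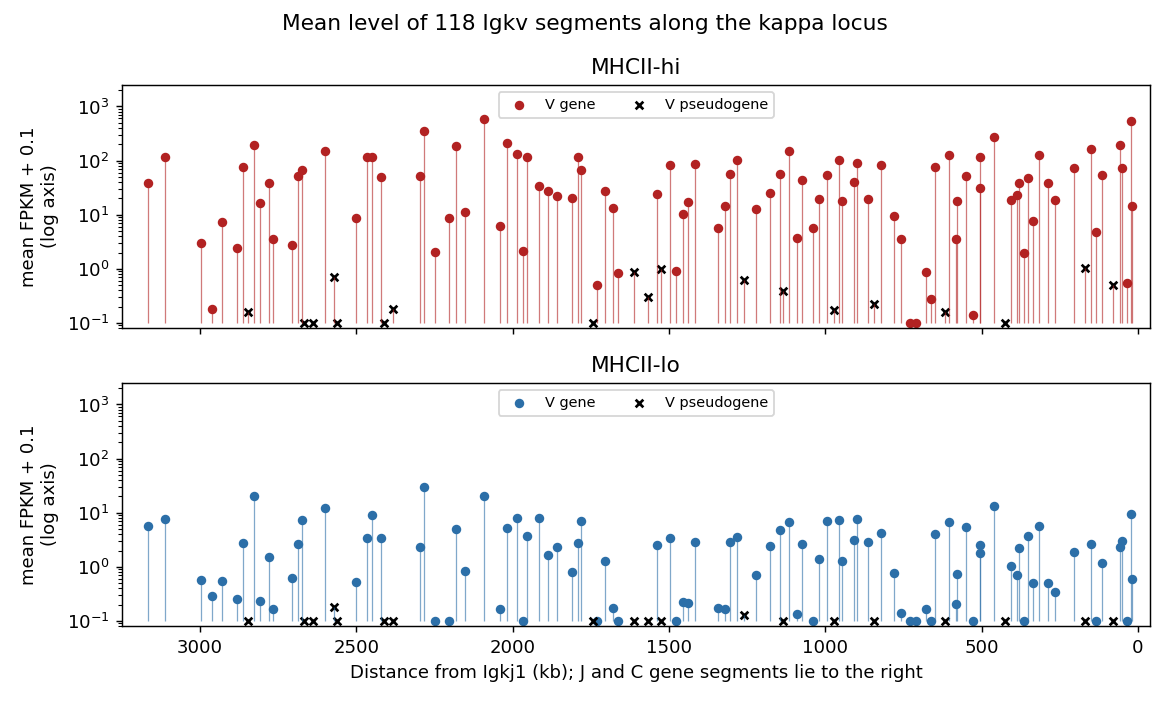
Mean FPKM plus 0.1 (log axis) of the 118 Igkv segments against their distance from Igkj1 in kb, for MHCII-hi (top) and MHCII-lo (bottom); dots are V genes and crosses V pseudogenes, each a mean of 3 libraries. V genes of high and low level alternate along the locus in both groups, and the 19 pseudogenes stay below 1 FPKM.

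Igkv10-96 was the most abundant segment in MHCII-hi. It measured 586, 596 and 573 FPKM in MHCII-hi against 24.4, 17.5 and 17.7 FPKM in MHCII-lo, and the groups were far apart in every library. The ratio was 29.5 and the log2 change 4.83 ± 0.12 (SE; limma adjusted p = 2.16e-07). The gene (ENSMUSG00000094420.2; GRCm38 chromosome 6, 68631963 to 68632442, minus strand) is annotated as a V gene with a leader exon and a V exon.

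Igkv10-94 measured 215, 211 and 215 FPKM in MHCII-hi against 6.89, 3.88 and 4.35 FPKM in MHCII-lo, a ratio of 42.3 (limma adjusted p = 6.98e-07). Igkv10-95, whose sequence is printed above, measured only 6.57, 5.82 and 5.71 FPKM in MHCII-hi against 0, 0 and 0.19 FPKM in MHCII-lo. It passed the test (limma adjusted p = 1.00e-06), but its MHCII-lo level is listed at 0 in 2 libraries. Within MHCII-hi the 3 similar segments of this family thus ranged from 6.03 to 585 FPKM in their means.

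Igkv3-2, second in MHCII-hi, had 550.2, 557 and 534 FPKM there against 12.1, 8.66 and 7.44 FPKM in MHCII-lo. Its log2 change was 5.74 ± 0.15 (SE; limma adjusted p = 2.76e-07), and its ratio 58.1. Igkv3-5 had 187, 199.8 and 189.5 FPKM in MHCII-hi against 2.32, 2.40 and 1.90 FPKM in MHCII-lo. The ratio of 87.1 was the largest among the 56 segments measured at 1 FPKM or more in both groups, and its log2 change of 5.92 ± 0.06 (SE) was the largest of the 87 tested (limma adjusted p = 1.33e-08). Igkv3-10, which is 98.1% identical to Igkv3-5 in its V exon, had 160.2, 164 and 168 FPKM in MHCII-hi against 3.27, 1.55 and 2.74 FPKM in MHCII-lo, a ratio of 65.2.

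Igkv15-103, the most abundant segment in MHCII-lo, had 348, 365 and 365 FPKM in MHCII-hi against 30.9, 28.4 and 30.5 FPKM in MHCII-lo. Its libraries were tight within each group, and the ratio of 12 was below the median of the 56 (log2 change 3.54 ± 0.04 SE, limma adjusted p = 1.08e-08). Igkv14-126 ranked 6 in MHCII-hi and 2 in MHCII-lo, with 206, 192 and 193 FPKM in MHCII-hi against 18.2, 21.6 and 21.5 FPKM in MHCII-lo. Like Igkv15-103 it shares no stretch of 50 bases with another segment, and its ratio was 9.65 (limma adjusted p = 1.04e-07). Igkv6-23 held the fourth place in both groups, with 260, 286 and 259.6 FPKM in MHCII-hi against 15.4, 10.7 and 13.9 FPKM in MHCII-lo, a ratio of 20.1.

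Of the other segments among the 12 most abundant in MHCII-hi, Igkv1-99 rose 38.2-fold to 189 ± 6.03 FPKM, against 4.94 ± 0.826 FPKM in MHCII-lo (SD). Igkv4-55 rose 22.0-fold to 148 ± 17.5 FPKM, against 6.73 ± 1.31 FPKM in MHCII-lo. Igkv19-93 rose 16.5-fold to 129.6 ± 4.27 FPKM, against 7.85 ± 1.92 FPKM in MHCII-lo. Igkv1-117 had almost the level of Igkv4-55 in MHCII-hi, 148 ± 7.67 FPKM, but a smaller ratio of 12.2, with 12.2 ± 0.294 FPKM in MHCII-lo. The limma adjusted p-values of these 4 were 8.71e-08, 5.56e-07, 1.55e-06 and 1.83e-08, in the same order. Together the 12 made up 49.6 ± 0.462% of the Igkv FPKM in MHCII-hi, and 7 of them were also among the 12 most abundant in MHCII-lo.

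**Figure D2:**
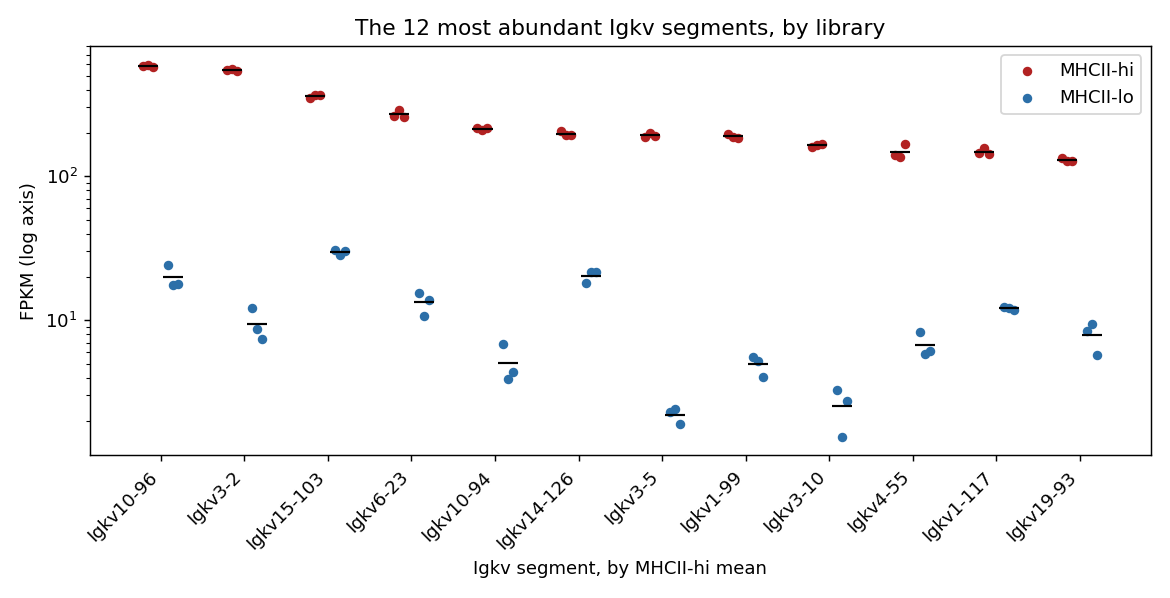
FPKM (log axis) of the 12 Igkv segments with the highest MHCII-hi mean, in each of the 3 MHCII-hi (left of each pair) and 3 MHCII-lo libraries; bars are group means. Every MHCII-hi library lies above every MHCII-lo library, and the gap is widest for Igkv3-5 and narrowest for Igkv14-126.

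The smallest ratio among the 56 was that of Igkv4-90, with 31.2, 36.6 and 32.6 FPKM in MHCII-hi against 11.1, 5.89 and 6.68 FPKM in MHCII-lo. It ranked 48 by level in MHCII-hi and 8 in MHCII-lo, and its ratio was 4.25 (log2 change 2.0 ± 0.20 SE, limma adjusted p = 0.000134). Igkv2-137, the segment farthest from the J segments, followed with a ratio of 6.97, then Igkv12-41 with 7.16 and Igkv5-48 with 7.58. On the log2(FPKM + 1) scale, where low levels are compressed, the smallest changes among the 87 belonged to Igkv1-122 (1.23), Igkv1-133 (1.38), Igkv9-129 (1.5) and Igkv4-92 (1.57). Their MHCII-hi values lay between 0.98 and 3.60 FPKM, so these are segments near the minimum. All 4 passed in limma, with adjusted p-values of 0.00202, 0.000107, 0.000361 and 0.00107.

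Both segments that did not pass rested on uneven MHCII-hi libraries. Igkv6-29 had 0, 5.04 and 5.57 FPKM in MHCII-hi against 0.24, 0 and 0.08 FPKM in MHCII-lo (log2 change 1.63 ± 0.70 SE, limma adjusted p = 0.0752). Igkv6-20, which differs from it at the 5 positions printed above, had 21.4, 17.8 and 29.1 FPKM in MHCII-hi against 0.44, 0.45 and 0.97 FPKM in MHCII-lo. Igkv4-54 had 9.06, 0.98 and 0.73 FPKM in MHCII-hi against 0.11, 0 and 0 FPKM in MHCII-lo (log2 change 1.65 ± 0.64 SE, limma adjusted p = 0.0554). Its closest relative Igkv4-61, 96.7% identical, had 59.1, 58.0 and 53.1 FPKM in MHCII-hi against 2.84, 3.17 and 2.17 FPKM in MHCII-lo. Without MHCII-hi replicate 1 both passed, but their changes moved in opposite ways. The log2 change was then 2.51 for Igkv6-29 (limma adjusted p = 2.14e-05) and 0.84 for Igkv4-54 (limma adjusted p = 0.00246). Whether reads moved between such near copies was not tested.

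The make-up of the kappa V transcripts by family differed most for family 3. Its 11 members summed to 1125 ± 9.75 FPKM in MHCII-hi and 20.4 ± 4.26 FPKM in MHCII-lo (SD), a ratio of 55.3. Its share of all Igkv FPKM was 17.6% to 17.9% in the MHCII-hi libraries and 6.11% to 7.23% in the MHCII-lo libraries, without overlap. Of its members, 8 were tested and 8 rose, beside 27.2% of all tested genes. The 6 with at least 1 FPKM in MHCII-lo had ratios of 25.2 to 87.1, and the others reached the minimum only through MHCII-hi. Within the family Igkv3-2 and Igkv3-5 led in MHCII-hi, while Igkv3-3, between them on the chromosome and listed at 0 in MHCII-lo, had a mean of 0.450 FPKM in MHCII-hi.

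Family 10 also took a larger share in MHCII-hi, 12.7 ± 0.148% against 7.98 ± 0.842% in MHCII-lo, and its summed level was 32.2 times as high. Family 6 made up 11.3 ± 0.185% in MHCII-hi and 9.72 ± 1.02% in MHCII-lo, with a ratio of 23.7. Family 4, the largest with 31 members, made up 14.6 ± 0.301% in MHCII-hi and 15 ± 0.771% in MHCII-lo, and its libraries overlapped. Its ratio of 19.8 was close to the 20.4 of all Igkv segments together. Of its 23 tested members 22 rose, beside 27.2% of all tested genes. Only 13 of the 23 averaged at least 1 FPKM in MHCII-lo, and the others reached the minimum only through MHCII-hi. The summed level of family 4 was 928 ± 18.5 FPKM in MHCII-hi and 46.8 ± 7.41 FPKM in MHCII-lo.

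Other families had smaller shares in MHCII-hi, although their summed levels were 10.4 to 16.5 times as high there. Among their most abundant segments, Igkv12-46 rose 14.1-fold, Igkv5-43 12.3-fold, Igkv8-30 19.1-fold, Igkv9-120 9.14-fold and Igkv2-109 14.9-fold, all by ratio of means, beside the 38.2-fold of Igkv1-99 in family 1. Family 15, which is Igkv15-103 alone, made up 5.67 ± 0.155% in MHCII-hi and 9.70 ± 0.797% in MHCII-lo. Family 1 made up 9.45 ± 0.221% in MHCII-hi and 11.9 ± 0.997% in MHCII-lo, family 14 made up 5.18 ± 0.114% in MHCII-hi and 7.89 ± 1.23% in MHCII-lo, and family 5 made up 3.94 ± 0.129% in MHCII-hi and 6.38 ± 0.142% in MHCII-lo. For families 2, 8, 9 and 12 the MHCII-hi share was 1.54%, 4.69%, 1.74% and 3.33%, against 3.01%, 5.81%, 2.81% and 5.13% in MHCII-lo. Shares add up to a fixed total, so a larger share of some families means smaller ones of others. The exact permutation p for a share was 0.10 at best in 19 families compared, and 0.127 after Benjamini-Hochberg adjustment, so no family passed on its own.

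**Figure D3:**
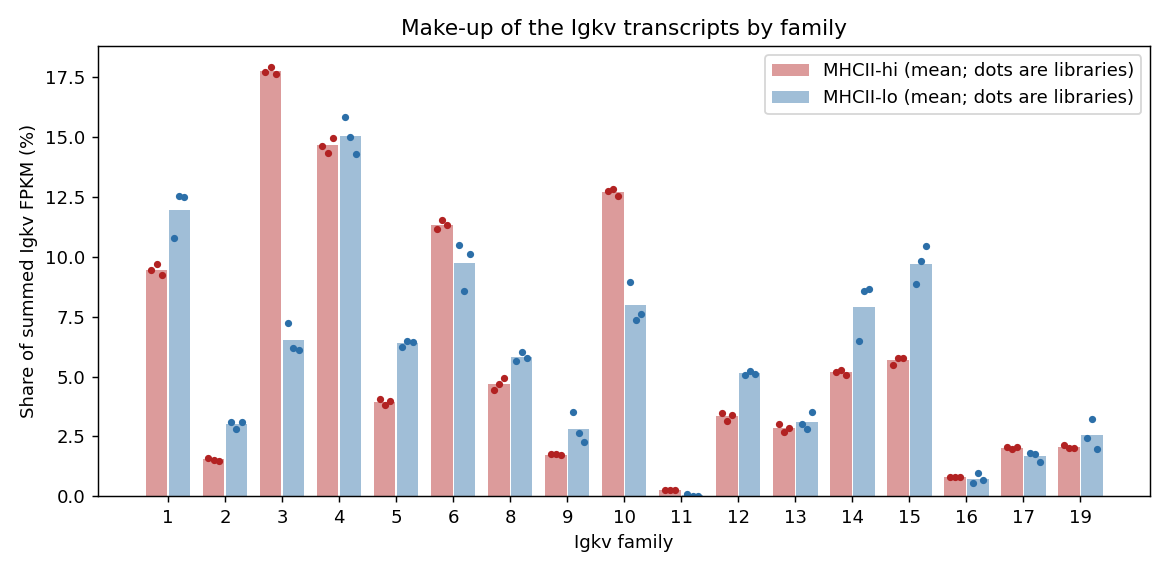
Share of the summed Igkv FPKM held by each Igkv family with a tested member, in percent; bars are group means and dots the 3 libraries, MHCII-hi left of MHCII-lo. Family 3 stands at 17.8% in MHCII-hi and 6.51% in MHCII-lo, and families 1, 14 and 15 have the lower share in MHCII-hi.

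Within family 4 the levels covered a wide range. The segments that followed Igkv4-55 in MHCII-hi were Igkv4-91, with 123, 113 and 112 FPKM in MHCII-hi against 3.97, 2.52 and 4.36 FPKM in MHCII-lo, and Igkv4-59, with 98.8, 106 and 98.3 FPKM in MHCII-hi against 4.39, 3.50 and 2.28 FPKM in MHCII-lo. Their ratios of 32.1 and 29.8, with 30.8 for Igkv4-68, were the 3 largest of the family among segments of at least 1 FPKM in both groups. Igkv4-57 had a smaller change, with 55.0, 58.1 and 57.1 FPKM in MHCII-hi against 6.15, 3.95 and 4.24 FPKM in MHCII-lo and a ratio of 11.9. Igkv4-70, which is 96.0% identical to Igkv4-59, varied between libraries of MHCII-hi, at 16.5, 4.85 and 9.89 FPKM, against 0.37, 0 and 0 FPKM in MHCII-lo, and still passed (limma adjusted p = 0.000289). Igkv4-69 was at 16.9, 16.8 and 16.9 FPKM in MHCII-hi against 0, 0.11 and 0.23 FPKM in MHCII-lo, a level in MHCII-lo too low for a ratio to be read.

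In family 6, Igkv6-15 had 120.1, 131 and 123 FPKM in MHCII-hi against 6.80, 4.97 and 5.10 FPKM in MHCII-lo, and Igkv6-25 had 121, 109.8 and 119 FPKM in MHCII-hi against 2.77, 2.28 and 2.28 FPKM in MHCII-lo. The libraries of the pair overlapped in MHCII-hi but not in MHCII-lo, and the ratios were 22.1 for Igkv6-15 and 47.8 for Igkv6-25. In family 1, Igkv1-110 had 113, 119 and 114 FPKM in MHCII-hi against 8.96, 8.89 and 8.62 FPKM in MHCII-lo, close to its relative Igkv1-117 in both groups, and the pair had ratios of 13.1 and 12.2. Igkv1-99 is set apart from both in sequence, at most 84.7% identical to any other segment, and its ratio was 38.2. In family 14 the pair of abundant segments differed as well: Igkv14-111 had 109.1, 126 and 109.7 FPKM in MHCII-hi against 3.66, 3.13 and 3.17 FPKM in MHCII-lo, a ratio of 34.7, beside the 9.65 of Igkv14-126. Neither shares a stretch of 50 bases with another Igkv transcript.

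Tested segments of families with 1 or 2 members rose too. Igkv16-104, alone in its family, had 52.2, 50.4 and 49.8 FPKM in MHCII-hi against 1.86, 2.81 and 1.96 FPKM in MHCII-lo, a ratio of 23.0. Igkv17-127 and Igkv17-121, which differ at 6 positions of the V exon, had ratios of 28.8 and 20.6. Igkv11-125 had 16.4, 17.2 and 16.1 FPKM in MHCII-hi against 0.31, 0.08 and 0 FPKM in MHCII-lo (limma adjusted p = 2.67e-07). In the larger family 14, Igkv14-100 was listed at 0 in all 3 MHCII-lo libraries and had 6.94, 9.61 and 9.34 FPKM in MHCII-hi. It thus belongs to the segments that reached the minimum through MHCII-hi only. In all, 23 of the 118 segments were listed at 0 in every MHCII-lo library and above 0 in at least 1 MHCII-hi library. The V gene Igkv1-35 was listed at 0 in all 6 libraries.

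Shares of single segments differed as well. Igkv3-2 held 8.63 ± 0.186% of the Igkv FPKM in MHCII-hi and 3.0 ± 0.461% in MHCII-lo, Igkv10-96 held 9.23 ± 0.177% in MHCII-hi and 6.36 ± 0.530% in MHCII-lo, and Igkv3-5 held 3.03 ± 0.105% in MHCII-hi and 0.714 ± 0.0987% in MHCII-lo. In the other direction, Igkv14-126 held 3.11 ± 0.121% in MHCII-hi and 6.68 ± 1.26% in MHCII-lo, and Igkv4-90 held 0.528 ± 0.0445% in MHCII-hi and 2.49 ± 0.592% in MHCII-lo. Close relatives could move apart: Igkv13-85 rose 43.3-fold to 114 ± 7.11 FPKM, against 2.64 ± 0.202 FPKM in MHCII-lo, while Igkv13-84, 97.0% identical in its V exon, rose 9.43-fold to 66.0 ± 4.25 FPKM, against 7.0 ± 1.42 FPKM in MHCII-lo. Igkv6-25 and Igkv6-17, 95.6% identical, had ratios of 47.8 and 13.0.

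Across the 56 segments measured in both groups, log2 levels in MHCII-hi and MHCII-lo had a Pearson r of 0.690 and a Spearman rho of 0.639. Segments are not independent replicates, and all values of a group come from the same 3 libraries. The median coefficient of variation of these segments between libraries was 5.69% in MHCII-hi and 19.1% in MHCII-lo. The effective number of segments, the exponential of the Shannon entropy of their shares, was 46.9 ± 0.547 in MHCII-hi and 44.6 ± 1.47 in MHCII-lo (exact permutation p = 0.10, two-sided). With the inverse Simpson index, which weighs abundant segments more, it was 30.2 ± 0.620 in MHCII-hi and 30.3 ± 2.02 in MHCII-lo (exact permutation p = 0.90), and with families as units 11.8 in MHCII-hi and 13.1 in MHCII-lo. The direction of this difference thus depends on the measure.

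**Figure D4:**
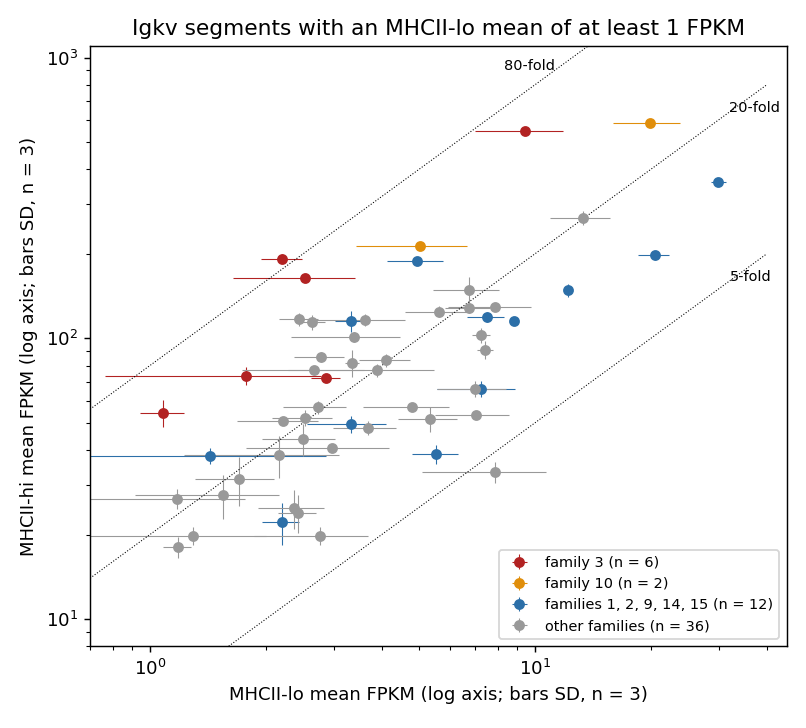
Mean FPKM in MHCII-hi (vertical, log axis) against MHCII-lo (horizontal, log axis) for the 56 Igkv segments with an MHCII-lo mean of at least 1 FPKM; bars are SD (n = 3) and dotted lines mark equal ratios. All points lie between ratios of 4.25 and 87.1, with the 6 members of family 3 at 25.2 or above.

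Position along the locus was compared with the ratio. The segments span 18.4 kb to 3166 kb from Igkj1, and family 3 occupies the stretch nearest to it, up to 204 kb. In the 500 kb nearest to Igkj1 the summed level was 1712 ± 32.4 FPKM in MHCII-hi and 47.8 ± 9.22 FPKM in MHCII-lo, a ratio of 35.9. Without family 3 the same stretch had 588 ± 24.9 FPKM in MHCII-hi and 27.4 ± 5.35 FPKM in MHCII-lo, a ratio of 21.4. Without that family the stretch thus fell among the other stretches. In the next 5 windows of 500 kb the ratios were 15.6, 22.3, 16.1, 21.8 and 12.7, and it was 12.1 for the last 2 segments. Over the 56 segments the Spearman rho between log2 ratio and distance was -0.24, and it was 0.02 over the 50 outside family 3. Leaving out family 3 also removed every segment within 204 kb of Igkj1, so family and position cannot be told apart.

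Orientation was also compared. The 48 segments that lie in the orientation of Igkj1 made up 47.4 ± 0.304% of the Igkv FPKM in MHCII-hi and 47.6 ± 2.13% in MHCII-lo, and the remainder came from the 70 segments in the opposite orientation. These shares differed by less than the SD in MHCII-lo. Outside family 3, whose 11 members all have the orientation of Igkj1, the shares were 36.0 ± 0.289% in MHCII-hi and 43.9 ± 2.66% in MHCII-lo.

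The partners of the V segments in the same locus rose with them, and the ratio of Igkc was above that of the summed V segments. All 6 tested kappa J and C genes were called higher in limma, beside 27.2% called higher and 40.5% called lower among all tested genes. Igkc, the kappa constant region, measured 6646, 6653 and 6793 FPKM in MHCII-hi against 244.6, 193 and 192 FPKM in MHCII-lo, a ratio of 31.9. The summed Igkv level per Igkc level was 0.946 ± 0.0119 in MHCII-hi and 1.48 ± 0.0473 in MHCII-lo, without overlap (exact permutation p = 0.10, the smallest possible), whereas the summed level of the 5 Igkj genes per Igkc level was 0.451 ± 0.00299 in MHCII-hi and 0.474 ± 0.0373 in MHCII-lo (exact permutation p = 0.20). The Igkj sum was 111, 86.9 and 99.4 FPKM in the MHCII-lo libraries. Within it Igkj4 had 331, 354 and 352 FPKM in MHCII-hi against 0.39, 0.61 and 22.8 FPKM in MHCII-lo. That MHCII-lo level of Igkj4 rests on 1 library. The lambda chain genes were called higher in 8 of 8 cases, and summed Igkv per summed Iglv level was 27.2 ± 0.221 in MHCII-hi and 17.9 ± 2.0 in MHCII-lo.

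The genes that carry out or steer kappa joining changed less uniformly. Among 26 genes of light chain recombination and its regulators, 15 rose, 8 fell and 3 did not pass, with a median log2 change of 0.32. Of all tested genes 27.2% rose and 40.5% fell. The recombinase genes Rag1 and Rag2 rose 6.49-fold and 3.32-fold, to 9.55 ± 0.237 and 1.91 ± 0.107 FPKM in MHCII-hi, against 1.47 ± 0.142 and 0.577 ± 0.0603 FPKM in MHCII-lo. Both also stand on the pre-B cell list, and Irf4 on the plasma cell list. The kappa enhancer factors Irf4 and Spib rose 9.01-fold and 6.45-fold, while Irf8 fell to 40.8 ± 0.523 FPKM, against 51.9 ± 0.560 FPKM in MHCII-lo. The end-joining genes went both ways. The ligase gene Lig4, the polymerase gene Polm and Dclre1c, which codes for the hairpin-opening nuclease Artemis, rose 2.21-fold, 2.70-fold and 1.33-fold. Xrcc5, Prkdc, Xrcc4 and Poll fell, with ratios of MHCII-hi to MHCII-lo of 0.664, 0.777, 0.825 and 0.888. Xrcc6, at 14.3 ± 1.09 FPKM in MHCII-hi and 14.4 ± 0.374 FPKM in MHCII-lo, and Nhej1, at 2.70 ± 0.451 FPKM in MHCII-hi and 3.52 ± 0.601 FPKM in MHCII-lo, did not pass. Pou2af1, the B cell coactivator at the octamer motif of immunoglobulin promoters, rose 10.5-fold to 38.95 ± 2.13 FPKM, and Pou2f2 1.67-fold, while Pou2f1 did not pass (limma adjusted p = 0.0636).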

How the data were processed

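Stranded mRNA libraries (per the labels) of 6 sorted samples (3 MHCII-hi, 3 MHCII-lo) were used as the authors deposited them, as 1 FPKM value per gene and library. The unit was inferred from the values, since the file headers name only the library. The tools listed in the submitters' processing notes, without versions, are StringTie, HISAT2 and fastp, beside mm10 and GRCm38. FPKM values keep no counts, so depth is unknown and no counting interval is given.

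From the deposited values, limma 3.58.1 (R 4.3.3) was fitted to log2(FPKM + 1) of the 12295 genes averaging at least 1 FPKM across all 6 libraries, with a mean-variance trend, two-sided tests and Benjamini-Hochberg adjustment over all of them (threshold 0.05). The pseudocount of 1 understates the change of low genes, and ratios are of mean FPKM. Sums and shares were compared by exact permutation tests. Sequences, positions and types came from GENCODE M21 (GRCm38), which matched all 118 symbols, and identities were computed with Biopython 1.88. No source used here says how reads that fit several segments were assigned.

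The segments named are the 12 highest in MHCII-hi, the 5 largest and 5 smallest changes, those not passing, the top segment of each family with at least 3 members and the 5 largest share differences in each direction. Other segments, named as near copies, relatives or extremes of these, were chosen after their values were seen. The members and lists were chosen with earlier results of these data known. Alternatives were other pseudocounts, minimums and scalings, no trend, a replicate block and leaving out each library.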

Additional observations from a re-analysis of the deposited data

How the results depend on the processing

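In every setting tried 0 tested Igkv segments were lower in MHCII-hi. The number called higher was 85 of 87 as reported (27.2% of all genes), 70 of 70 with a minimum mean of 5 FPKM (29.5% of all genes), 98 of 110 without a minimum (14.1% of all genes), 86 with a pseudocount of 0.1 or 0.01 and 85 to 87 when 1 library was left out. The median log2 change of the tested segments, 3.56 as reported, was 3.77 with a minimum of 5 FPKM, 3.24 without a minimum, 4.34 with a pseudocount of 0.1 and 4.47 with 0.01, and 3.51 to 3.59 when 1 library was left out. A smaller pseudocount compresses low values less, and the minimum sets which segments are counted. Each minimum is on the mean over all 6 libraries, so segments that reached it only through MHCII-hi had to differ. The log2 ratio of the summed level stayed between 4.30 and 4.45 when 1 library was left out. The difference in effective number of segments, MHCII-hi minus MHCII-lo, was 2.37 as reported and 1.73 to 3.17 when 1 library was left out. It was 2.07 over segments averaging at least 1 FPKM across all 6 libraries (exact permutation p = 0.20). With the inverse Simpson index it was -0.107 (exact permutation p = 0.90), hardly a difference. It reversed to -1.29 with families as units (exact permutation p = 0.10). These measures weigh segments differently. Of 399 values of 27 named segments, 392 kept their direction and call, 7 newly passed and 0 were lost. The 7 concern Igkv4-54, which passed in limma with a pseudocount of 0.1 (adjusted p = 0.00878) or 0.01 (0.0107), with the replicate block (0.0375) and without any 1 of the MHCII-hi libraries (0.00246 to 0.0468), and Igkv6-29 without MHCII-hi replicate 1. Without that library the log2 change was 0.84 for Igkv4-54, against 1.65 as reported, and 2.51 for Igkv6-29, against 1.63 as reported; it was 1.22 and 1.16 for Igkv6-29 without MHCII-hi replicate 2 or 3. Libraries of the same replicate number hardly deviated together (correlations of 0.0626, 0.0019 and 0.0804), so the numbers were not taken as pairs. With the replicate block 86 segments were called higher and 0 lower, and the median log2 change was 3.56. MHCII-hi replicate 2 did not correlate best with its own number. Unknown depth limits what can be said of segments at or near 0.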
